A study of Mus musculus with 2 samples.

Results

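Phf12 and 9 genes of the Sin3 corepressor complex (Sin3a, Sin3b, Sap30, Sap130, Ing1, Ing2, Suds3, Brms1 and Arid4b) were examined for binding of the histone demethylase LSD1 in mouse brown adipocytes. The 10 genes were taken from 21853 protein-coding genes. Phf12 was chosen by its measured promoter score, a tied value that only 1 peak in the list exceeds, and the other genes by their known place in the complex, with earlier results of these data known. All peaks within 1 kb of any protein-coding start of these genes, or between 10 kb upstream and the gene end, were collected, 24 of the 59175 peaks in the list. The cells were primary brown adipocytes of the C57BL/6 N strain, labelled Control, passaged 2 to 3 times and collected after 10 days of adipogenic differentiation with insulin, dexamethasone, rosiglitazone, indomethacin, T3 and isobutylmethylxanthine. The series holds 2 libraries, 1 LSD1 immunoprecipitate, for which the labels name a home-made antibody, and 1 input DNA library without antibody, and the processed data are 1 peak list of the LSD1 immunoprecipitate. Peaks measure where LSD1 was found and not whether a gene is expressed, so the labelled cell type was not checked against markers here.

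Sin3 proteins are large scaffolds that have no DNA-binding domain of their own and carry the histone deacetylases HDAC1 and HDAC2 to chromatin, where removal of acetyl groups from histones lowers transcription. DNA-binding repressors such as the Mad and Mxi proteins bind the scaffold directly, and smaller subunits read histone marks or stabilise the complex. Phf12, also known as Pf1, is a PHD zinc finger protein that joins a form of the complex with Sin3b and the chromodomain protein Morf4l1 at transcribed genes. LSD1 is a demethylase of histone lysines that works beside the same deacetylases in a separate complex, CoREST.

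There were no replicates, so no difference between peaks could be compared with the variation between cultures and no test was made. The list gives no read counts, so the depth and the counting error are unknown. The score is the authors' value per peak and its scale is not stated. It is used below only to rank and describe peaks. Differences and ratios of scores are therefore not read as amounts of LSD1. Coordinates are of the mm10 assembly with the first base counted as 1.

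Promoter sequences of 5 of the genes are shown because their peaks span the range of scores and because Sin3a has starts with and without a peak. They are the RefSeq promoters of GRCm38.p6, 250 bases before to 50 after a start on the strand of the gene, in lower case with capitals on exact matches to short promoter motifs on either strand. The motifs matched here were GGGCGG, named the GC box, the pentamer of the CCAAT box, the TATA box with the letters TATAAA, and an ETS-type motif with the letters CCGGAAGT. The regions are chr11:77982566-77982865 for Phf12 (plus strand, peak score 3100), chr8:57487811-57488110 for Sap30 (minus strand, 1677), chr9:57071790-57072089 for the upstream start of Sin3a (plus strand, no peak), chr9:57076126-57076425 for its internal start (plus strand, 585), chr8:72723020-72723319 for Sin3b (plus strand, 172) and chr5:117115944-117116243 for Suds3 (minus strand, 93.6).
Phf12: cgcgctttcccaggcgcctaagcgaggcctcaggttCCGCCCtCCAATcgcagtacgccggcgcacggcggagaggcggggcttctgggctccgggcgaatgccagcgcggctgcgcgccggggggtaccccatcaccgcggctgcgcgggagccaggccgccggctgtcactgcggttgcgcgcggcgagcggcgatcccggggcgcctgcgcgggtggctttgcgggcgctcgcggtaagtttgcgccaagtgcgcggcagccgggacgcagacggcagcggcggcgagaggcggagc
Sap30: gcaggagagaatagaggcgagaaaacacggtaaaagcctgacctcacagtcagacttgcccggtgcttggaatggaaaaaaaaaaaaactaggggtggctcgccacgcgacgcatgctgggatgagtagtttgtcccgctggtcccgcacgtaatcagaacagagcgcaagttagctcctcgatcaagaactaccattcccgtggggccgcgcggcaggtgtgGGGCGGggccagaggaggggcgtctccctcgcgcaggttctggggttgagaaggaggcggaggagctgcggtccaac
Sin3a upstream start: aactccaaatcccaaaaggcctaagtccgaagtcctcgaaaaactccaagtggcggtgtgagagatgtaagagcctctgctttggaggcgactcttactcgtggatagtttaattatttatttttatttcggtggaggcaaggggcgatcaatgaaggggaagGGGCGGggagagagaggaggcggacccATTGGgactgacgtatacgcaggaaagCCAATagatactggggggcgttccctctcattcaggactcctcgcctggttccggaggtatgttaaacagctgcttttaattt
Sin3a internal start: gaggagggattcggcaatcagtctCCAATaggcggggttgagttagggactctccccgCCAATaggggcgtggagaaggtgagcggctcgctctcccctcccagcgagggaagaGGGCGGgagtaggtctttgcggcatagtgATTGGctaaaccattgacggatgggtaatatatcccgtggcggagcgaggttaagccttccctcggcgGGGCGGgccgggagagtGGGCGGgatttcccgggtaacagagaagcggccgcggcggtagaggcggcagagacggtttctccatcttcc
Sin3b: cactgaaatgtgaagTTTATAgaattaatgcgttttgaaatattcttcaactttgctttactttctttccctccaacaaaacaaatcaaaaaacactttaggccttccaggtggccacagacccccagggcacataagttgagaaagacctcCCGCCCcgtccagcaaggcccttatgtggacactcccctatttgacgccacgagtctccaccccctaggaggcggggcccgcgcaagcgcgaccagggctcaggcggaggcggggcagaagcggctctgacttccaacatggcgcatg
Suds3: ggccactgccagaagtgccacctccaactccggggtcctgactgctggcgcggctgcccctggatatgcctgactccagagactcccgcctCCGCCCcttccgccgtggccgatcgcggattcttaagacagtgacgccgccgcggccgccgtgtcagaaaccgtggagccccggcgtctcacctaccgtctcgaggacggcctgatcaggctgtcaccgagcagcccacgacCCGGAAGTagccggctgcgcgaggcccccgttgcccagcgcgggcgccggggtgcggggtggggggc

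The Phf12 promoter holds 50 CpG dinucleotides in these 300 bases and that of Suds3 holds 34. Sap30 has 22, the internal Sin3a start 25, the upstream Sin3a start 14 and Sin3b 14. Over the 21263 RefSeq promoters of protein-coding genes the median was 23 where a peak overlapped the promoter and 4 where none did. The genes with the lowest and the highest scores among these sequences, Suds3 and Phf12, thus both have CpG-dense promoters, and the upstream Sin3a start, with no peak over it, has as many CpG dinucleotides as the occupied Sin3b promoter.

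A promoter peak, meaning one that reaches to 1 kb or less from a protein-coding start, was found at all 10 genes, as at 55.8% of all protein-coding genes. Their promoters are CpG-rich, in the deciles 8 to 10 of CpG observed over expected ratio, and in these deciles 90.5% of genes had a promoter peak. The count of 10 is thus near what genes of like CpG content show. All 10 also had a peak between 10 kb upstream and the gene end, against 69.8% of all genes. This count follows from the first, since every promoter peak of these genes also lay in that window. Promoter scores spread widely among the genes, from 75.5 at Brms1 to 3100 at Phf12, with a median of 768. The median over the 12199 protein-coding genes with a promoter peak was 315 (quartiles 156 and 570), and 7 of the 10 genes lay above it. In CpG deciles 8, 9 and 10 the median over such genes was higher, at 371, 386 and 437. Of the 7, Sap130 lay below the middle of its own decile, where 45.14% of genes with a promoter peak scored lower. The rest of the 7 lay above the middle of theirs. A promoter peak with a score of at least 193, which bounds the upper quartile of all peaks, was present at 7 of the 10 genes, against 38.5% of all genes and 70.7% of genes in CpG deciles 8 to 10. Without Phf12, which was chosen on its score, the median of the other 9 genes was 717, 6 of them lay above 315 and 6 had a promoter score of at least 193.

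**Figure D1:**
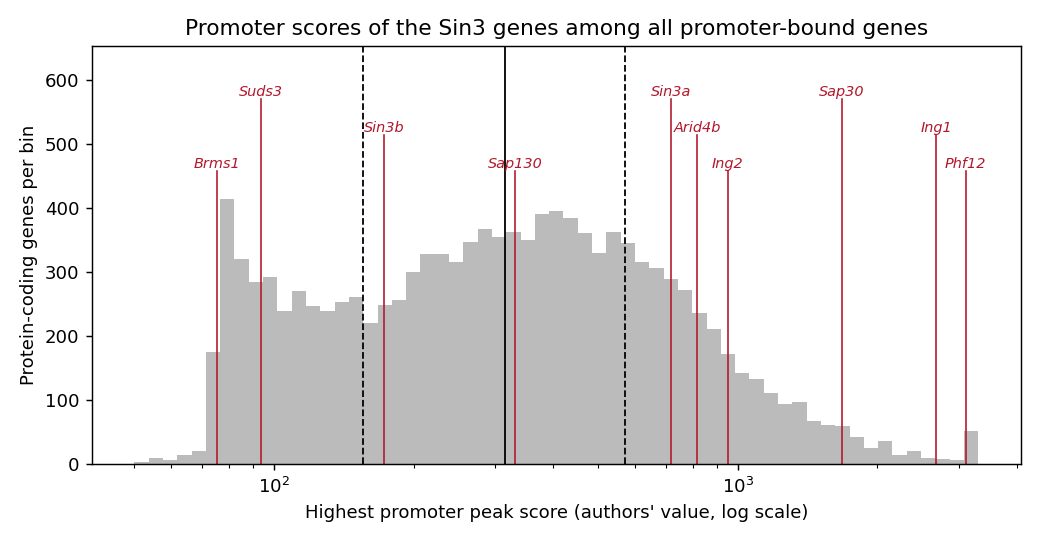
Histogram of the highest promoter peak score (authors' value, log axis) over the 12199 protein-coding genes with a promoter peak, with the median as a solid line, the quartiles as dashed lines and the 10 Sin3 corepressor genes as red lines. Brms1 (75.5) and Suds3 (93.6) lie below the lower quartile, and Phf12 (3100) stands in the bar of tied scores at the right end.

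Phf12 carried the highest score of the genes. Its promoter peak at chr11:77981242-77983248 was 2007 bp wide with a score of 3100 and covered 2 of the 3 protein-coding starts of the gene, at 77982754 and 77982802. A total of 34 peaks in the list had this score or a higher one, 33 of them exactly 3100, so the tied value gives no order among them. Of all genes with a promoter peak, 99.6% scored lower, a rank that follows from the choice of Phf12 by its score. The peak was not centred on the start. It reached 1512 bp upstream of the first start and 494 bp downstream, with its midpoint 509 bp upstream, where the midpoint of the highest promoter peak lay a median of 6 bp downstream of the nearest start over all genes with a promoter peak (quartiles -147 and 196 bp).

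Peaks flanked the main Phf12 peak on either side. An upstream peak of 981 bp at chr11:77979992-77980972 scored 261 and was separated from it by 269 bp, and an intronic peak of 1482 bp at chr11:77984091-77985572 scored 395, 842 bp beyond its other edge. Farther into the gene, 3 narrow intronic peaks of 589 to 592 bp scored 78.1, 78.1 and 88.1. The third annotated start of Phf12, at 78023381, had no peak over it or within 1 kb. With 6 peaks Phf12 had more than 90.4% of the 2387 genes within 25% of its length, whose median was 2. By this measure Brms1 stood as high, with 4 peaks and 92% of genes of like length having fewer (median 1). The nearest protein-coding start was the gene's own for all 6 Phf12 peaks, but for only 2 of the 4 Brms1 peaks. No 32-base word of the main peak occurred a second time on chromosomes 1 to 19, X and Y, so its sequence is unique at that length.

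**Figure D2:**
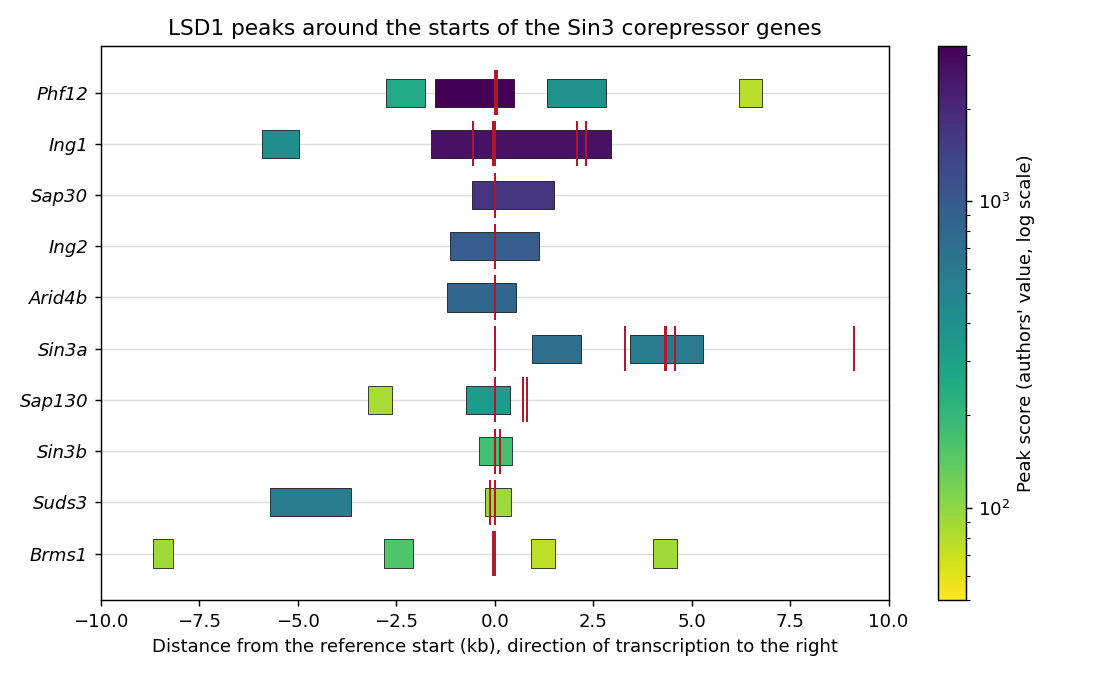
Peaks of each gene by distance in kb from a reference start, the protein-coding start nearest to the highest promoter peak, with transcription to the right. Boxes are peaks coloured by score (log scale), red ticks are protein-coding starts, genes are ordered by promoter score, and 4 peaks farther than 10 kb away are not drawn. The main peaks of Phf12 and Ing1 are dark and wide, and at Sin3a and Brms1 the reference start has no peak over it.

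The scaffold genes Sin3a and Sin3b differed in position and score of their peaks. Sin3a, which encodes the scaffold of the main complex, had peaks at chr9:57072981-57074238 (1258 bp, score 717) and chr9:57075486-57077339 (1854 bp, score 585). The higher of them covered no start. It lay in an intron, with its near edge 941 bp from the upstream start at 57072040 and so just inside the 1 kb limit. The lower one covered the 3 starts between 57076376 and 57076628 and the start of a long noncoding RNA, 2700012I20Rik. The other 4 of the 7 Sin3a starts had no peak over them. When a promoter peak had to have its midpoint within 1 kb of a start, the Sin3a promoter score was 585.

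Sin3b, the scaffold of the form that holds Phf12, had a single promoter peak at chr8:72722882-72723720, 839 bp wide with a score of 172. It covered all 4 starts, with the midpoint 11 bp from the nearest. Only 27.6% of genes with a promoter peak scored lower. A weak peak at chr8:72746086-72746864 (score 65.9) lay over a coding exon of Sin3b. Its nearest protein-coding start belongs to F2rl3, a thrombin receptor gene.

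The Sin3-associated proteins Sap30 and Sap130 both had a promoter peak. Sap30, a small zinc-binding subunit that stabilises the complex, had 1 peak at chr8:57486358-57488441, 2084 bp wide with a score of 1677, above 98.0% of genes with a promoter peak. It reached 581 bp upstream and 1502 bp downstream of the only start, into this short gene of 5154 bp, and it covered the start of the noncoding transcript 2500002B13Rik. Sap130, which associates with Sin3a, had its promoter peak at chr18:31633632-31634771 (1140 bp, score 331), close to the median of genes with a promoter peak. That peak covered the upstream starts at 31634371 and 31634383 but neither of the downstream starts at 31635085 and 31635179. An upstream peak scored 86.1 and an intronic peak 82.4.

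Ing1 and Ing2 encode PHD finger proteins that read trimethylated lysine 4 of histone H3, a mark of active promoters, and tie the complex to it. Ing1 had the widest peak of the genes, 4557 bp at chr8:11554505-11559061 with a score of 2676. It lay over all 7 protein-coding starts, from 11555571 to 11558429,, of a gene of 7681 bp. Counting Ing1 itself, 66 genes had a promoter score as high or higher. Ing2 had 1 peak, at chr8:47674032-47676287 (2256 bp, score 950), centred 1 bp from its only protein-coding start at 47675158. That peak also covered the start of AA386476, annotated as a long noncoding RNA of a bidirectional promoter.

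Suds3, Brms1 and Arid4b showed 3 different arrangements. Suds3, which the complex needs for its deacetylase activity, had a narrow promoter peak over its 2 starts at chr5:117115585-117116248 (664 bp, score 93.6), and only 9.86% of genes with a promoter peak scored lower. Upstream of it, in the same window, a peak of 2050 bp with a score of 575 covered the start of the neighbouring kinase gene Taok3. Arid4b, a subunit with an ARID domain, shared its only peak (chr13:14062569-14064331, 1763 bp, score 819) with Ggps1, whose enzyme makes geranylgeranyl diphosphate and whose starts are under the same peak. The peak reached 1215 bp upstream and 547 bp downstream of the first Arid4b start, and its midpoint lay 32 bp from a Ggps1 start. Arid4b is the longest of the genes, at 136372 bp, and 1 peak is few for that length, since only 9.62% of the 1185 genes of like length had fewer.

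Brms1, a metastasis suppressor related to Suds3, was the weakest case. Neither of its starts, at 5041354 and 5041399, lay under a peak. Its promoter peak at chr19:5042329-5042927 (599 bp, score 75.5) was intronic, its near edge 930 bp downstream of a start, and only 0.762% of genes with a promoter peak scored lower. The peak was lost as a promoter peak with promoters of 500 bp, with the midpoint required inside the promoter, with an overlap of at least 200 bp and with a score of at least 100. Of its 32-base words 5.99% occurred more than once in the genome. In the Brms1 window the highest score, 156, was at the start of its neighbour B4gat1, a glycosyltransferase gene, and the other peaks scored 89.6 (intronic) and 90.9 (upstream, with 18.5% repeated words).

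Few of these peaks lay close to the limits of the rule, though the total depends on the window. Those of Brms1 and Sin3a, with edges 930 and 941 bp from a start, were the promoter peaks nearest to the 1 kb limit, and the first peak beyond it was the intronic Phf12 peak, at 1289 bp. The first peak beyond the upstream limit of 10 kb lay 11910 bp upstream of Arid4b, with a score of 95.7. Of the 24 peaks 11 were promoter peaks and 13 were not, and for 17 the nearest protein-coding start was the gene's own. Of the 13 other peaks 8 scored below 100. The remaining ones were the pair flanking the main Phf12 peak and the peaks over the starts of the neighbours Taok3, B4gat1 and Cars2 (415, 937 bp wide), a mitochondrial tRNA synthetase gene upstream of Ing1.

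Width and score went together, and the genes were compared with promoter peaks within 10% of their own width. The main peak of Phf12 scored above 99.4% of the 634 promoter peaks of like width, whose median score was 826.5. Sap30, of nearly the same width, scored above 90.8% of its 556 (median 871). Ing1 and Ing2 were ordinary for their width, above 50% of 10 peaks (median 2482) and 51.2% of 389 peaks (median 946). Sap130 (35.7%), Sin3b (39.1%) and Suds3 (27.4%) lay below the middle of peaks of like width, Arid4b (67.3%) and the higher Sin3a peak (84.0%) above it, and Brms1 (3.94%) near the bottom. The high score of Ing1 thus came with a wide peak, and that of Phf12 stood high among peaks of its width. The score of Phf12 was the value it was chosen on.

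**Figure D3:**
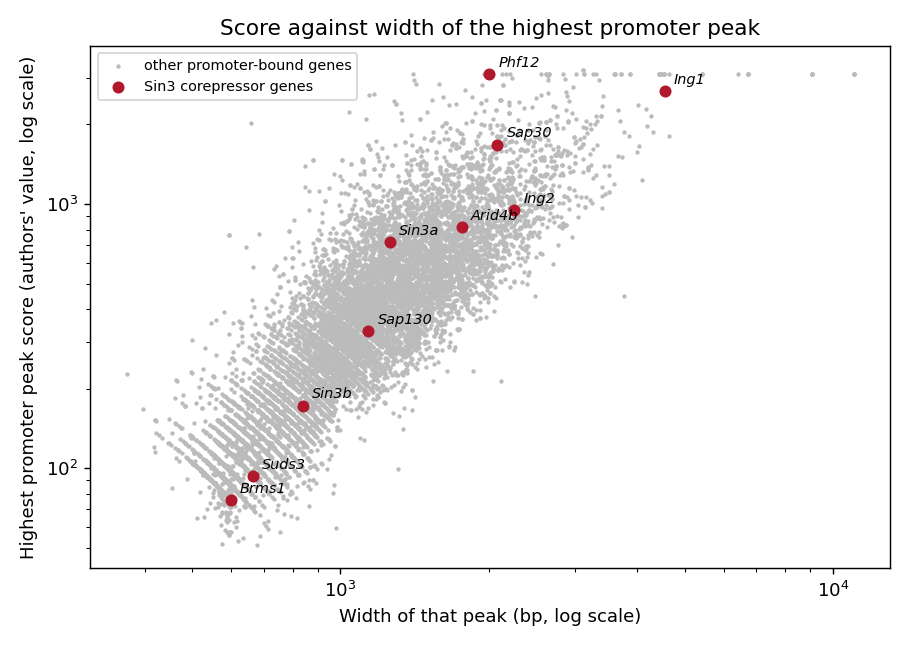
Highest promoter peak score (authors' value, log axis) against the width of that peak in bp (log axis) for each protein-coding gene with a promoter peak, grey, with the 10 Sin3 corepressor genes in red. Phf12 (2007 bp, 3100) lies at the upper edge of the cloud for its width, and Ing1 (4557 bp, 2676) within the spread of the few peaks as wide.

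Over all genes with a promoter peak the median score rose with each CpG decile, from 99.6 in decile 1 to 437 in decile 10. The 10 genes span only deciles 8 to 10, and within this narrow range CpG content did not order them by score. Suds3 (CpG observed over expected ratio 0.918) and Ing1 (0.923) had nearly equal ratios in the same decile, 10, and scores of 93.6 and 2676. Phf12 (0.80), Brms1 (0.783), Sap130 (0.791), Sap30 (0.814) and Arid4b (0.769) all fell in decile 8, with scores of 3100, 75.5, 331, 1677 and 819. Without Phf12, which was chosen on its score, the scores in decile 8 still ran from 75.5 at Brms1 to 1677 at Sap30. Within their own CpG deciles Ing1 scored above 98.9% of genes with a promoter peak, Sap30 above 97.35%, Suds3 above 5.19% and Brms1 above 0.779%. Phf12 scored above 99.4%, a rank that follows from its choice by score.

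**Figure D4:**
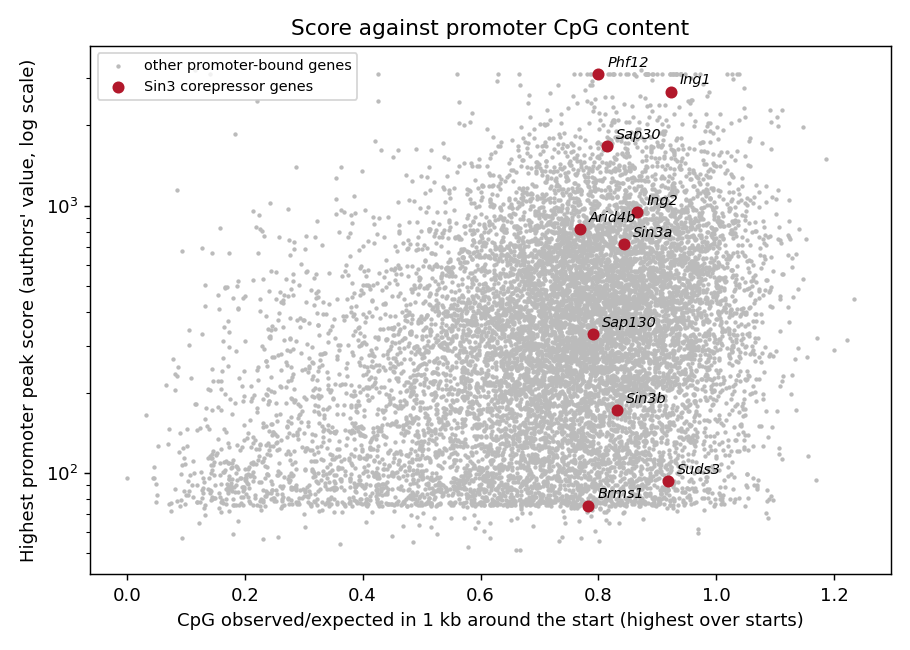
Highest promoter peak score (authors' value, log axis) against the CpG observed over expected ratio of the most CpG-rich start of each gene (window of 1 kb), with other genes with a promoter peak in grey and the 10 Sin3 corepressor genes in red. The red points lie between ratios of 0.769 and 0.923 and run from the bottom (Brms1, 75.5) to the top (Phf12, 3100) of the score range.

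The centres of the promoter peaks of Phf12, Suds3 and Brms1 are shown because they join a high score with few CpG dinucleotides, a low score with many and a low score with few. Each is 200 bases around the midpoint, read from GRCm38.p6 on the strand of the gene, with CpG dinucleotides in capitals. The regions are chr11:77982146-77982345, chr5:117115817-117116016 and chr19:5042529-5042728.
Phf12: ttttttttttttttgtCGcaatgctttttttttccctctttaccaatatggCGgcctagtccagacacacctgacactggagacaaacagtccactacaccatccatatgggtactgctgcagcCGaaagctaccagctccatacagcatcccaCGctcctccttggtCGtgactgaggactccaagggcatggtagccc
Suds3: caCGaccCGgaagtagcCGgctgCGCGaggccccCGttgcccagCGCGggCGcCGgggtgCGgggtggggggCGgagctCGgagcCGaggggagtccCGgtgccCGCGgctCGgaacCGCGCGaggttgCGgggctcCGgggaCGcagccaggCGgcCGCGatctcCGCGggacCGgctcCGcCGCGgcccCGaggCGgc
Brms1: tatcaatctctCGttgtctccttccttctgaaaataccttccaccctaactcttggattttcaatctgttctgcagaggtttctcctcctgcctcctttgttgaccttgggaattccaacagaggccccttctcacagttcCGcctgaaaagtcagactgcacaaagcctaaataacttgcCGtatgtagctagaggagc

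The centre of the Phf12 peak holds 5 CpG dinucleotides and 49.5% GC, with runs of T, and 20.9% of the 14423 promoter peaks had fewer CpG in their central bases. The centre of the Suds3 peak holds 35 at 82.0% GC, with 98.6% of promoter peaks having fewer, and that of Brms1 holds 3 at 46.5% GC. The median was 13. Over its whole 2007 bp the Phf12 peak has 129 CpG dinucleotides and a ratio of 0.772, so the CpG-dense part lies off its midpoint, at the start shown above. The Brms1 peak has a ratio of 0.147 over its whole width, against 0.674 for the median promoter peak, and misses the CpG-rich start of that gene. The Suds3 peak has a ratio of 0.957.

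Exact motif matches were searched on both strands in the RefSeq promoters, which were found for 8 of the 10 genes. These genes have 13 promoters in the table, 5 of them of Ing1 and 2 of Sin3a, some overlapping, so a gene with several promoters has more chances of a match than the single promoters behind the percentages. The GC box was in 12 of the 13 promoters and in 7 of the genes (Phf12, Sin3a, Sin3b, Sap30, Ing1, Ing2 and Suds3), against 46.2% of all promoters and 69.4% of those under a peak. The CCAAT box was in 8 promoters of 5 genes (Phf12, Sin3a, Ing1, Ing2 and Arid4b), against 38.2% of all promoters and 38.2% of those under a peak. Arid4b, the shared promoter, held CCAAT boxes and no GC box. A TATA box was found in 3 promoters, of Sin3b and Ing1 (12.6% of all promoters and 5.95% of those under a peak). The first base of the match lay at -235 bp from the start in Sin3b, and at -28 and -30 bp in the Ing1 promoters. The Ing1 promoters with a TATA box overlap and hold the same match. An NRF1-type match (GCGCATGCG) was found at Ing1 (2.35% and 4.25%), and an ETS-type match at Suds3 (5.15% and 8.25%). The E-box CACGTG, the sequence bound by Max and its Mad and Mxi partners that recruit Sin3, was in none of the 13, against 7.84% of all promoters. Of promoters under a peak 10.1% held the E-box. Also in none of the 13 were the CRE (TGACGTCA, 2.23% of all promoters and 3.64% of those under a peak), the YY1-type (AAGATGGCG, 1.83% and 3.01%) and the AP-1-type motif (TGANTCA, 6.99% and 4.4%). In the 11 whole promoter peaks of the genes the E-box occurred in 1, that of Sin3b, against 19.3% of all promoter peaks. The ETS-type motif occurred in 3 of these peaks, of Sin3a, Ing2 and Suds3 (7.58% of all), and the AP-1-type motif in 1, that of Arid4b (17.9%). The GC box was in 10 (72.6%), the CCAAT box in 8 (63.9%), the TATA box in 3 (22.6%) and the NRF1-type motif in 1 (3.83%), while the CRE (3.69%) and YY1-type motifs (3.88%) were in none. Peaks differ in width, and a wider one has more room for a match. None of the searched motifs overlapped another kind in the printed promoters. A match is a run of letters and not a site of binding.

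Paralogues were set side by side in 5 pairs named by family. Sin3a scored 717 and Sin3b 172. Ing1 scored 2676 and Ing2 950. Sap30 scored 1677 and its relative Sap30l 787, with a peak of 1729 bp. Brms1 scored 75.5 and Brms1l 605, the latter with a peak of 1048 bp. Arid4b scored 819 and Arid4a, which binds the retinoblastoma protein, 1580 with a peak of 2071 bp. Both paralogues lay above the median of genes with a promoter peak in the Ing, Sap30 and Arid4 pairs, and on opposite sides of it in the Sin3 and Brms1 pairs. The higher-scoring paralogue had the wider promoter peak in all 5 pairs.

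**Figure D5:**
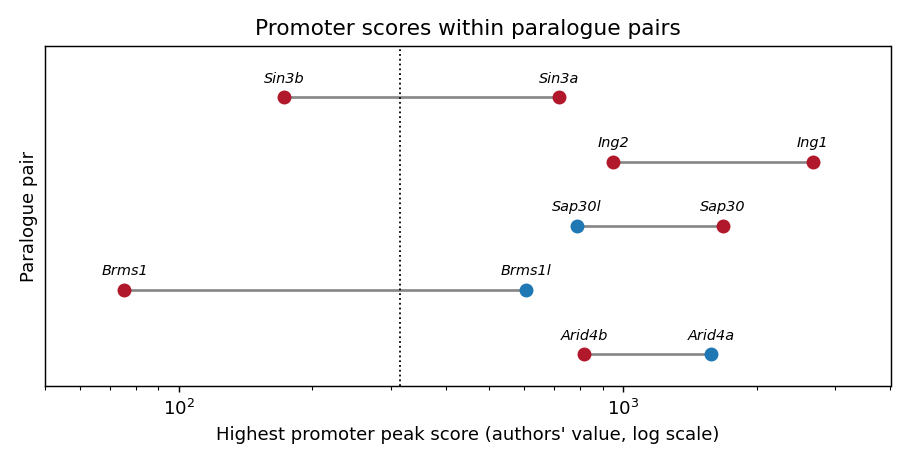
Highest promoter peak score (authors' value, log axis) of each gene in 5 paralogue pairs, joined by a line, with the studied genes in red, their relatives outside the list in blue and the median of all genes with a promoter peak (315) dotted. The pair of Brms1 (75.5) and Brms1l (605) and that of Sin3b (172) and Sin3a (717) cross the median.

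Other genes of the Sin3 pathway had promoter peaks at a count near that of genes of like CpG content. Of 25 genes listed by role, 25 had a promoter peak, against 55.8% of all genes. All but Sap25, 24 genes, fall in CpG deciles 8 to 10, where 90.5% of genes had such a peak. Sap25 counts only through a peak with a score of 71.85 that covered no start, its near edge 888 bp away. That peak was lost with promoters of 500 bp and with the midpoint required inside the promoter. It was also lost with an overlap of at least 200 bp and with a score of at least 100. The list holds 15 further subunits and associated enzymes and 10 DNA-binding proteins that recruit Sin3, or their partner Max. Their median promoter score was 399, and 16 lay above the median of 315 over all genes with a promoter peak. In CpG deciles 8, 9 and 10 the median over such genes was higher, at 371, 386 and 437. Of the 16, Hdac1, Foxk1 and Foxk2 lay below the middle of their own decile. There 46.65%, 37.19% and 36.65% of genes with a promoter peak scored lower. The rest of the 16 lay above the middle of theirs. The subunits had a median of 341 and a range from 71.85 at Sap25 to 1580 at Arid4a, and 8 of 15 lay above 315. The recruiters had a median of 449 and a range from 174 at Rest, the repressor of neuronal genes, to 1353 at Tgif1, a homeodomain repressor, and 8 of 10 lay above 315. The 5 highest were Arid4a, Tgif1, the Max partner Mxd4 (1181), the subunit Sinhcaf (813) and Sap30l. Of the catalytic deacetylases Hdac1 scored 341, above 53.3% of genes with a promoter peak, and Hdac2 scored 213, above 34.5%. Morf4l1, the chromodomain partner of Phf12, scored 138, and the histone-binding subunit Rbbp7 scored 92.4.

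Genes most like Phf12 were ranked by the distance in log2 score and log2 width of the highest promoter peak, over this 1 library and outside the histone families. The nearest was Fbrs (score 3100, 1955 bp, distance 0.038), followed by Zbed4 (3100, 2129 bp, distance 0.085), Colgalt1 (3100, 2166 bp, distance 0.110), Maco1 (3100, 2208 bp, distance 0.138) and Syt11 (2825, 1935 bp, distance 0.144). Including histone genes, 52 genes had a promoter score of at least 3100, and 16 of them were outside the histone families. The first 4 have the same score as Phf12, so their order rests on width alone.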

How the data were processed

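LSD1 was profiled by chromatin immunoprecipitation and sequencing in 1 immunoprecipitate, with 1 input library. Bowtie2, mm10 and MACS 1.41 are listed, per the submitters' processing notes. Not given in the sources used here are the threshold, the read filters and how the input entered peak calling. The deposited score is the authors' value per peak, with no scale stated, and sequencing depth is unknown. The file has no header and its starts were read as counted from 0.

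The members and lists were chosen with earlier results of these data known. Starts and genes came from GENCODE M21 and sequence from GRCm38.p6, the chromosomes of mm10, and no peak passed a chromosome end. A promoter peak shares 1 bp or more with the 1 kb on either side of a protein-coding start, and a gene's promoter score is its highest. CpG deciles use 1 kb around a start. Named genes were all 10 members with all their peaks, the 5 highest and any unoccupied genes of the wider list, paralogues, neighbours under a peak and the 5 genes nearest to Phf12. The level of Hdac1, Hdac2, Morf4l1, Rbbp7, Sap25, Rest, Foxk1 and Foxk2 was added after values were seen. Fam60a was found under the symbol Sinhcaf. Scripts ran in Python 3.11.15 with numpy 2.4.6 and were tested on simulated peaks. No statistical test was made.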

Additional observations from a re-analysis of the deposited data

How the results depend on the processing

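The number of the 10 genes with a promoter peak stayed between 7 and 10 over the 7 alternatives, and that of the 25 wider genes between 19 and 25. Over the same alternatives the share of all protein-coding genes with a promoter peak ran from 38.47% to 59.1%. The lowest counts came with peaks of a score of at least 193. Such a promoter peak was present at 38.5% of all genes and 70.7% of genes in CpG deciles 8 to 10. Promoters of 500 bp, a midpoint inside the promoter or an overlap of at least 200 bp removed Brms1, left 9 genes, and moved the median promoter score from 768 to 819. Leaving out Phf12, an alternative chosen after seeing the data, moved it to 717. The 24 peaks in the windows became 18 from the gene start to the gene end and 43 with 50 kb upstream. They became 17 when the nearest protein-coding start had to be the gene's own. With a score of at least 100 there were 14, and with a score of at least 193 there were 12. No paired analysis was possible because each group has 1 library, and leaving out a replicate was not possible for the same reason.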
